A study of Mus musculus with 22 samples.

Results

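Wild-type (WT) mouse cortex was described here through its splicing scores, from 7 of the 22 libraries of the series. The members were chosen by label, with earlier results of these data known: the 3 WT libraries at 6 months of age and the 4 WT libraries at 12 months. The 6-month WT mice were littermates from matings of N40K-Tg +/- with FAD +/- mice and carried neither transgene. The 12-month WT mice came from matings of Tau P301S +/- with WT mice and did not carry the tau transgene. The other 15 libraries were 3 each of N40K, 5xFAD and dTg (N40K,5xFAD) cortex at 6 months and 6 of Tau P301S cortex at 12 months. The N40K transgene encodes an N-terminal piece of U1-70K, which is part of the U1 small nuclear ribonucleoprotein (snRNP). 5xFAD mice carry mutant human amyloid precursor protein and presenilin transgenes, and Tau P301S mice a mutant human tau transgene. No source used here gave the promoters of the transgenes, the strain background or the sex of the animals. Nothing in the labels says whether each library came from a separate mouse, so p-values measure only the spread between these libraries.

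Pre-mRNA splicing removes introns from a transcript and joins its exons. U1 snRNP pairs with the 5′ splice site at the start of an intron, U2 snRNP binds the branch point, and the assembled spliceosome then cuts and joins the RNA. Splicing is mostly completed while a gene is being transcribed, but some introns are removed slowly or stay in polyadenylated RNA, where intron sequence can be read alongside exons. Neurons express many genes with very long introns, among them cell adhesion molecules, ion channels and synaptic proteins.

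The value for each gene and library was the deposited Sd score, a linear ratio rounded to 3 decimals. The abbreviation was taken to mean splicing deficiency, with higher values where more of the signal is unspliced. Its formula, whether it is scaled by length, and the read depth behind it are not given in the sources used here. The order of genes below is therefore the order of the deposited score, and no interval for counting error is given. The score is also no measure of expression, so the cortex label could not be checked against marker levels. Of 22 marker genes of cortical projection neurons, 19 had a score in each table, against 7 and 6 of 23 markers of other tissues at 6 and 12 months.

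The 2 ages were held in separate tables, which used different gene names. The 6-month table had 15705 genes (15696 symbols, 9 of which occurred more than once) and the 12-month table had 15192 genes. By symbol, 12952 genes matched, 82.5% of the 6-month symbols and 85.3% of the 12-month symbols. Age, mating and table cannot be told apart, so scores are not subtracted between tables and ranks are compared only as a description. For ranks, each matched gene received its percentile within each library, from 0 for the lowest score to 100 for the highest. Where scores are listed for a gene, the first 3 are the 6-month replicates 1 to 3 and the next 4 the 12-month replicates 1 to 4, and a pair of means gives 6 months first, each with its SD.

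WT cortex had low scores for most genes and a short tail of very high ones. At 6 months, 39.9% ± 0.899 (SD, n = 3) of genes had a score under 0.02 and 23.1% ± 0.477 had a score over 0.1. At 12 months, 56.5% ± 3.08 (SD, n = 4) lay under 0.02 and 13.8% ± 0.678 over 0.1. The median score of a library was 0.029, 0.029 and 0.03 in the 6-month WT replicates 1, 2 and 3. It was 0.013 in the 12-month WT replicates 1 and 2 and 0.017 in replicates 3 and 4. All 6-month medians thus lay above all 12-month ones, also over matched genes alone (0.023 to 0.024 against 0.012 to 0.016). This difference lies between tables and carries the limit given above.

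**Figure D1:**
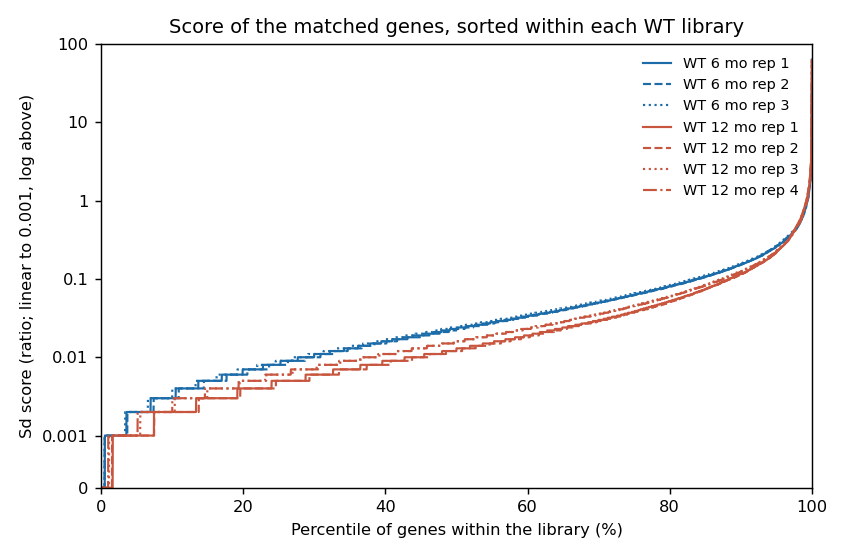
Sd scores of the 12952 matched genes, sorted from lowest to highest within each of the 7 WT libraries; the x axis is the percentile of genes and the y axis the score, linear up to 0.001 and logarithmic above. The 3 curves at 6 months lie almost on each other, and at 12 months replicates 1 and 2 run below replicates 3 and 4 over most of the range.

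A small set of genes had a mean WT score above 1. There were 404 such genes at 6 months (2.57% of the table), of which 353 were above 1 in every WT library, and 151 at 12 months (0.994%), of which 113 were. Many of the 6-month genes were predicted gene models (283 of 404), against 15 of 151 at 12 months. Genes above 1 held 83.5% of the summed mean score at 6 months and 49.9% at 12 months. Among matched genes, 80 were above 1 at 6 months and 93 at 12 months, with 27 on both lists (33.8% of the first and 29.0% of the second). Symbols found only in the 6-month table had a median WT score of 0.128, against 0.0233 for matched symbols, and those found only in the 12-month table had 0.0253 against 0.0145.

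The gene with the highest lowest-rank over the 7 libraries was Myo3a (ENSMUSG00000025716), an unconventional myosin known from sensory hair cells. Its scores were 11.465, 11.373 and 11.716 in the 6-month WT replicates and 52.313, 22.457, 61.38 and 63.748 in the 12-month replicates. Every library put it near the top of the ranking, and it was the highest matched gene in all 4 libraries at 12 months. Pspn, the neurotrophic factor persephin, had 4.668, 4.213 and 6.583 at 6 months and 2.331, 2.674, 4.145 and 2.331 at 12 months. Pdia2, a protein disulfide isomerase of the pancreas, had 2.388, 2 and 2.471 and then 2.444, 2.639, 2.111 and 2.514. The ranges of Pdia2 overlapped between the tables and those of Pspn did not.

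Npb, which encodes the signalling peptide neuropeptide B, was the least steady of these genes. Its 6-month scores were 8.234, 70.952 and 18.634 and its 12-month scores 3.107, 2.005, 2.148 and 2. Hes5, a Notch-pathway repressor of neural progenitors, was steady, with 1.694, 1.708 and 1.684 at 6 months and 1.292, 1.195, 1.251 and 1.273 at 12 months. Elmo3, of the engulfment and cell motility family, had 1.067, 1.049 and 1.055 and then 1.44, 1.45, 1.22 and 1.246. All 14 named genes of this set ranked within the top 1% of matched genes in every WT library, which is how they were picked. They also included Wnt1, a secreted patterning signal, with a mean of 1.16 ± 0.158 at 6 months (SD, n = 3) and 2.33 ± 0.371 at 12 months (SD, n = 4). Cyp21a1, the adrenal steroid 21-hydroxylase, had means of 1.34 ± 0.0983 and 2.68 ± 0.0652. The remaining members were Mst1 (macrophage-stimulating protein), Ropn1l (a sperm flagellum protein), Il31ra (a cytokine receptor), Ankrd53, Krtcap3 and Ggn (gametogenetin), and a sequence-named gene was counted and not named. Several of the 14 are better known from other tissues than from cortex.

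What the rule did not use was gene structure. Intron length was taken from the GENCODE M21 annotation as the gene span outside the exons of all its transcripts. An intron that any annotated transcript keeps is thus left out of it. By this measure Npb, Pspn and Hes5 had 0.075, 0.088 and 0.086 kb, and Krtcap3 0.174 kb. Myo3a was the exception with 383 kb in 33 introns, followed by Il31ra with 68.8 kb. An annotated gene on the opposite strand overlapped Myo3a, Mst1, Cyp21a1, Hes5, Ankrd53 and Ggn. The library kit keeps strand, but whether the scores were counted by strand was not given, so for these 6 genes reads of an overlapping gene cannot be told apart. Ropn1l and Il31ra were overlapped by a gene on the same strand, which counting by strand would not separate either.

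**Figure D2:**
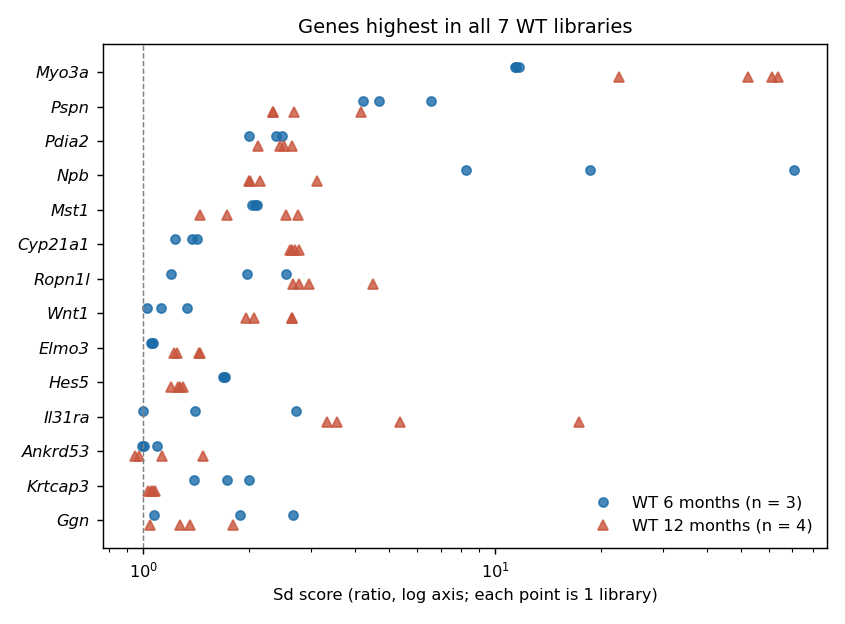
Sd scores (x axis, a ratio on a log scale) of the 14 named genes with the highest lowest-rank over the 7 WT libraries; each point is 1 library, circles at 6 months (n = 3) and triangles at 12 months (n = 4), and the dashed line marks a score of 1. The 6-month points of Npb are spread from 8.234 to 70.952, while those of Hes5 and Elmo3 almost coincide.

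At the other end were long genes of neuronal adhesion and signalling. The 10 named lowest genes were listed at 0 in all 7 libraries: Cdh13, Ntm, Nell1, Grid1, Fstl5, Syt1, Fgf13, Prkce, Spock1 and Gpr158. Ties at 0 were broken by intron length, so their length is part of the choice. Syt1 encodes the calcium sensor of synaptic vesicle release, Grid1 a delta-type glutamate receptor, Cdh13 and Ntm cell adhesion molecules, and Prkce a protein kinase C. The amyloid precursor protein gene App was also listed at 0 in all 7. In all, 56 genes at 6 months and 116 at 12 months were listed at 0 in every WT library, and 814 and 1289 had at most 0.002. A listed 0 is a score that rounds to 0 or was set to 0, and the files do not tell which.

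Across the whole table, scores were lower in genes with more intron sequence outside all annotated exons. This length is shorter where an annotated transcript keeps an intron, and how far that shapes the relation was not tested. The Spearman correlation across genes between the mean WT score and summed intron length was −0.630 at 6 months (14911 genes with an annotated length, 94.9%) and −0.552 at 12 months (13276 genes, 87.4%). Among genes with a mean score of at least 0.02 it was −0.437 and −0.302. Median intron length was 125 kb in the lowest score decile and 3.23 kb in the highest at 6 months, and 110 and 5.15 kb at 12 months. The number of introns was less closely related to the score (−0.298 and −0.0781). Among genes with 2 to 5 introns the length correlation was −0.421 at 6 months, and among those with 11 or more it was −0.678. The genes of a table share libraries and depth, and if the score is divided by intron length the relation is partly built in. This was not tested, because the formula is not known.

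**Figure D3:**
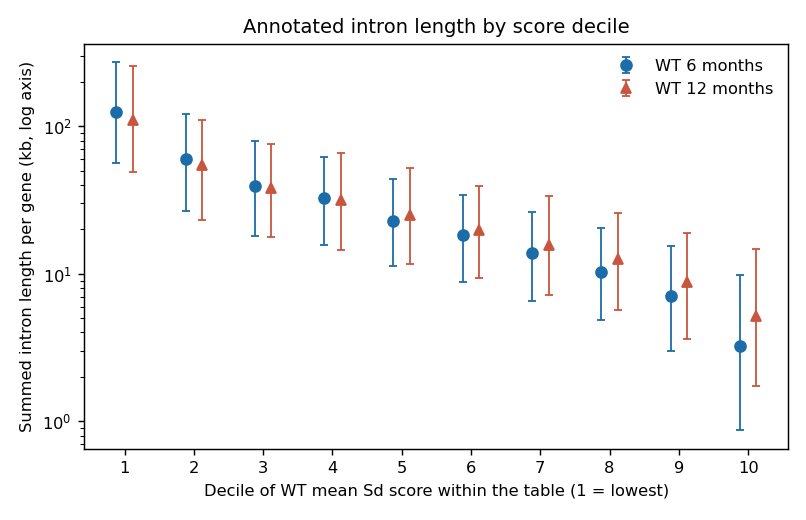
Summed annotated intron length per gene (y axis, kb on a log scale) by decile of the mean WT Sd score within each table (x axis, 1 is the lowest decile); points are medians and bars run from the lower to the upper quartile of genes. Length is the gene span outside the exons of all annotated transcripts. The median is lower at each step at both ages, going from 125 to 3.23 kb at 6 months and from 110 to 5.15 kb at 12 months.

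The highest decile differed from the rest in other annotated features as well. At 6 months 62.9% of its genes were protein coding, against 91.9% of all annotated genes, and 59.4% were overlapped by a gene on the opposite strand, against 46.7%. At 12 months, where few predicted genes were listed, 95.7% were protein coding against 98.6%, and 46.5% were overlapped against 43.8%. Genes that host a small nucleolar RNA (snoRNA) in GENCODE had a median percentile of 41.6 at 6 months (265 genes) and 42.0 at 12 months (257 genes), against 50.1 and 50.3 for the other genes.

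Gene groups were then placed on this ranking by the median of their members' mean percentiles, for which all matched genes lay at the middle of the scale. The gene lists were chosen with earlier results of these data known, and no test compares a group with the other genes. Within a list, the highest and lowest members are those by the mean of their percentiles in both tables, unless a single table is named. Very long neuronal genes were the lowest group, with medians of 2.02 at 6 months and 3.85 at 12 months. Of its 43 matched members, 34 and 32 lay in the lowest decile, 26 of them in both tables. Its members Ntm and Grid1 were listed at 0 throughout. Of the others, Ctnna3, an alpha-catenin gene, had 0.13, 0.168 and 0.236 at 6 months and 0.001, 0.002, 0.001 and 0.001 at 12 months. Pcdh15, a protocadherin of hair cell tip links, had 0.001 in each 6-month library and 0.034, 0.021, 0.044 and 0.039 at 12 months. These 2 genes thus ranked in opposite order in the tables.

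Synaptic and excitability genes also ranked low. Glutamate receptors and postsynaptic scaffolds had median percentiles of 16.4 and 9.12 (35 genes), GABA receptors and interneuron genes 13.2 and 20.5 (31 genes), voltage-gated ion channels 17.4 and 16.7 (42 genes) and vesicle release genes 22.2 and 17.8 (35 genes). No ion channel or GABA gene lay in the top decile of either table. Gabrd, the delta subunit of GABA-A receptors, was the highest GABA gene over both tables, with means of 0.0353 ± 0.00231 and 0.0208 ± 0.00263, although the chloride transporter gene Slc12a5 had the higher mean at 12 months (0.046 ± 0.00356). Grm2, a presynaptic metabotropic glutamate receptor, had 0.094 ± 0.00361 and 0.0783 ± 0.00892, and Doc2a, a calcium-binding vesicle protein, 0.119 ± 0.00624 and 0.129 ± 0.0197. Doc2a ranked at 86.5 and 90.5, far above the median of its list at both ages. Vamp2, the main vesicle SNARE and the highest member at 6 months, had 2.497, 2.477 and 2.449 at 6 months and 0.061, 0.082, 0.067 and 0.067 at 12 months. All 3 scores at 6 months lay far above all 4 at 12 months.

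Genes for the splicing machinery themselves spanned the ranking. SR proteins, which bind exonic enhancers and steer splice site choice, and their CLK kinases had medians of 70.7 and 68.4 (24 of 27 genes matched). Srsf6 had 0.44, 0.396 and 0.428 at 6 months and 0.303, 0.3, 0.323 and 0.303 at 12 months. Srsf1 had 0.183, 0.178 and 0.199 and then 0.146, 0.147, 0.234 and 0.187, and Srsf7 0.136, 0.132 and 0.149 and then 0.161, 0.141, 0.16 and 0.151. SR protein genes are known for conserved introns that hold a poison exon and stay in part of their own transcripts. Srsf6 and Srsf1 were in the top decile of both tables, and Rsrc1 (0.00233 ± 0.000577 and 0.002 ± 0.000816) in the bottom decile of both.

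The core spliceosome, including the U1 proteins, lay near the middle, with medians of 53.6 and 52.9 (34 genes). Ddx5, an RNA helicase, had 0.243, 0.248 and 0.243 and then 0.127, 0.127, 0.134 and 0.131, and was the only member in the top decile of both tables. Sfpq, a paraspeckle and splicing protein, had 0.149 ± 0.002 and 0.13 ± 0.0169, and Sf1, the branch point binding protein, 0.132 ± 0.00608 and 0.0693 ± 0.00591. The Sm ring proteins Snrpd3 and Snrpd1 were lowest, with 0.00267 ± 0.000577 and 0.00467 ± 0.000577 at 6 months and 0.00125 ± 0.0005 and 0.00325 ± 0.0005 at 12 months. Snrnp70, which encodes U1-70K and was chosen after its values were seen, had 0.044, 0.046 and 0.045 and then 0.045, 0.043, 0.049 and 0.051. These put it at percentiles 67.3 and 77.2.

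The hnRNP genes, whose proteins coat nascent RNA, had medians of 43.4 and 64.8 (22 genes), with Hnrnpa3 (0.093 ± 0.00173 and 0.355 ± 0.0033), Hnrnpa2b1 (0.101 ± 0.001 and 0.25 ± 0.0119) and Ptbp1 (0.121 ± 0.00651 and 0.11 ± 0.0064) highest over both tables. Ranks did not overlap between the tables and were higher at 12 months in 13 of the 22, and lower in 3, against 32.0% and 35.6% of all matched genes. These counts used ranks over matched genes only, and the direction of a moderate difference depends on which genes are ranked, as given below. Minor spliceosome genes had medians of 42.2 and 64.6 (8 genes). Splicing regulators of neurons ranked low, at 17.4 and 28.5 (27 genes), with Celf3 (0.095 ± 0.001 and 0.0728 ± 0.00967) highest and Elavl2 and Khdrbs3 at 0.001 in all 7 libraries.

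The list of snoRNA host and long noncoding RNAs and that of activity-induced genes ranked highest among the groups of RNA made in brain. Of 30 listed snoRNA host and long noncoding RNAs, 11 matched, with medians of 82.1 and 82.4. This high rank does not hold for snoRNA hosts in general. Over the annotated genes of each table, the 265 and 257 hosts had median percentiles of 41.6 and 42.0, below the other genes at 50.1 and 50.3. Snhg7, a snoRNA host, had 0.605, 0.597 and 0.592 and then 0.208, 0.15, 0.173 and 0.191. Mirg, an imprinted microRNA host, had 0.338, 0.348 and 0.392 and then 0.129, 0.107, 0.139 and 0.19. Gas5, another snoRNA host, was the lowest, with 0.001, 0.001 and 0 at 6 months and 0.048, 0.051, 0.06 and 0.055 at 12 months. Snhg7 and Mirg were in the top decile of both tables, and Gas5 lay at percentile 1.46 at 6 months and 79.4 at 12 months.

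Immediate early and activity genes, which neurons switch on within minutes of firing, had medians of 80.4 and 68.8 (17 of 30 matched). The median of the list varied among libraries, from 73.0 to 87.9 at 6 months and from 64.4 to 73.4 at 12 months. Per1, which also belongs to the circadian clock, had 0.213, 0.234 and 0.212 and then 0.286, 0.306, 0.274 and 0.286. Gadd45b and Gadd45g, stress-response genes, had means of 0.179 ± 0.0181 and 0.205 ± 0.0252 at 6 months and 0.159 ± 0.00954 and 0.125 ± 0.0154 at 12 months. Bdnf, a neurotrophin with a long final exon, was lowest, with 0.003 in each 6-month library and 0.001, 0.001, 0 and 0 at 12 months. Arc and Fos, chosen after their values were seen, had their highest 6-month score in replicate 2 (0.195 against 0.116 and 0.143, and 0.134 against 0.055 and 0.086). Clock genes lay lower as a group, at 48.8 and 37.0 (17 genes), led by Per1 and Bhlhe41 (0.404 ± 0.0414 and 0.148 ± 0.0244).

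Energy metabolism ranked low and translation high. Respiratory chain genes had medians of 21.3 and 29.6 (41 genes). Cyc1, cytochrome c1, was highest at both ages, with 0.219, 0.217 and 0.22 and then 0.605, 0.6, 0.612 and 0.606. The top decile held 2 of these genes at 6 months. At 12 months Cyc1 lay far above the rest, with Ndufs8 next (mean 0.1245 ± 0.00379). Glycolysis genes had 25.7 and 35.3 (15 genes). Among them the aldolase gene Aldoc had 0.322, 0.32 and 0.322 and then 0.29, 0.271, 0.295 and 0.297, while hexokinase Hk1 had 0.001 in all 7. Cytosolic ribosomal protein genes had 70.7 and 61.5 (57 of 59 matched), with 15 in the top decile at 6 months and 7 at 12 months, 3 of them in both. These were Rpl13a (0.269 ± 0.00265 and 0.87 ± 0.121), Rpl10a (1.05 ± 0.0273 and 0.149 ± 0.0048) and Rps2, the last chosen after its values were seen (0.187, 0.195 and 0.186 and then 0.171, 0.18, 0.179 and 0.176). Ribosomal protein genes have many near-identical processed pseudogenes, so their reads may be split or shared, and their scores are uncertain.

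Glial and vascular groups lay below the middle. Astrocyte genes had medians of 18.4 and 32.7 (20 genes), myelin and oligodendrocyte genes 32.4 and 42.4 (11), endothelial and pericyte genes 29.2 and 25.8 (15) and microglial genes 38.6 and 41.9 (16). Cd14, the lipopolysaccharide co-receptor of microglia, had 3.851, 4.078 and 4.797 and then 1.759, 0.858, 1.726 and 0.895. By the annotation used here Cd14 has no intron sequence outside all annotated exons, and how this shapes its score was not tested. Cd68, a lysosomal protein of phagocytes, had 0.266 ± 0.0244 and 0.177 ± 0.0106. Olig2, the oligodendrocyte lineage factor, had 0.131 ± 0.0139 and 0.0893 ± 0.00763, and C4b, a complement component, 0.12 ± 0.00462 and 0.0975 ± 0.00436. Low over both tables were the microglial genes Sparc and Ly86 and the astrocyte genes Mlc1 and Slc4a4, each between 0.001 and 0.002 in all 7 libraries.

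Other brain lists were mixed. Markers of cortical projection neurons had medians of 20.2 and 33.9 (19 genes), with the short transcription factor genes Neurod1 (0.293 ± 0.0382 and 0.0778 ± 0.0205), Fezf2 and Neurod2 highest and the long genes Cux1 and Mef2c lowest, both at 0.001 or 0.002 in all 7 libraries. Imprinted genes had 65.7 and 50.7 (16 genes), led by Mirg and the cell cycle inhibitor Cdkn1c (0.168 ± 0.0137 and 0.236 ± 0.066), and choroid plexus and ependymal genes 60.4 and 46.2 (6 of 14 matched). Of 17 histone genes 6 matched, and H3f3b, the gene of a replacement histone, stood at 0.245, 0.258 and 0.229 and then 0.313, 0.287, 0.325 and 0.317, at a median of the list of 22.6 and 38.0.

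Among 28 amyloid, tau and Alzheimer risk genes the medians were 30.3 and 36.1. Epha1 (0.264 ± 0.0227 and 0.237 ± 0.116) and the lipid transporter Abca7 (0.183 ± 0.00721 and 0.0905 ± 0.00436) were highest, and App and the alpha-secretase Adam10 (0.002 in each 6-month library, 0.00125 ± 0.0005 at 12 months) lowest. Mapt, the tau gene, chosen after its values were seen, had 0.007 in each 6-month library and 0.002, 0.002, 0.003 and 0.004 at 12 months.

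Markers of other tissues were few in both tables but mostly ranked high where present, with medians of 91.1 and 94.1 over 6 matched genes of 23. The lowest were Vil1, an intestinal microvillus protein, with 0.018, 0.036 and 0.012 and then 0.028, 0.026, 0.02 and 0.017, and Myh7, a slow muscle myosin, with 0.065, 0.06 and 0.066 and then 0.012, 0.014, 0.012 and 0.011. Actn3, a skeletal muscle actinin, had 0.208, 0.198 and 0.186 and then 0.364, 0.302, 0.488 and 0.25. Myh6, the atrial myosin heavy chain, had 0.197, 0.202 and 0.185 and then 0.224, 0.216, 0.237 and 0.244. Slc34a1, a kidney phosphate transporter, had 0.176, 0.167 and 0.145 and then 2.024, 0.934, 0.711 and 0.334. These 3 were among 4 in the top decile of both tables. Of blood markers 3 matched, and Hba-a2, alpha globin, had 0.543, 0.553 and 0.572 at 6 months and 0.037, 0.012, 0.037 and 0.035 at 12 months; it has a near-identical copy.

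**Figure D4:**
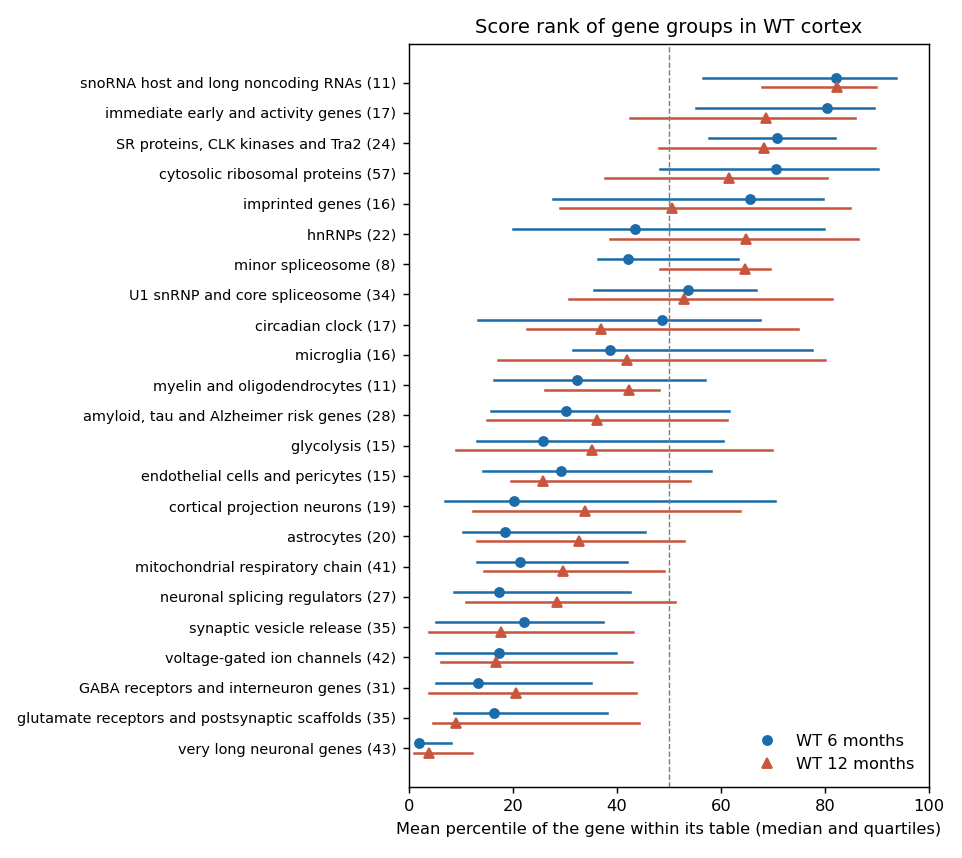
Median of the members' mean percentile (x axis, 0 is the lowest and 100 the highest score of the matched genes) for gene groups, circles at 6 months (n = 3) and triangles at 12 months (n = 4), with bars from the lower to the upper quartile of members and the number of matched genes in brackets. Very long neuronal genes lie at 2.02 and 3.85 and the list of snoRNA host and long noncoding RNAs at 82.1 and 82.4, on either side of the dashed line at 50.

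Ranks agreed much better within a table than between tables. The Spearman correlation across matched genes was 0.989 to 0.990 among the 3 pairs of 6-month WT libraries, 0.962 to 0.986 among the 6 pairs at 12 months and 0.792 to 0.822 among the 12 pairs across the tables. The mean scores of the tables correlated at 0.821. Of 1296 genes in each top decile (mean score of at least 0.154 at 6 months and 0.121 at 12 months), 799 were shared, 61.7% of each, but 428 when ranks were taken over each full table. The bottom deciles held 1344 and 1340 genes, with 844 shared (62.8% and 63.0%). Only 5 genes went from the top decile at 6 months to the bottom one at 12 months, and 6 the other way.

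Percentiles of the 3 libraries at 6 months and the 4 at 12 months did not overlap in 8754 of 12952 genes (67.6%), with 4141 ranking higher at 12 months (32.0%) and 4613 lower (35.6%). When ranks were instead taken over each full table, 62.7% of 8599 non-overlapping genes ranked higher at 12 months, against 47.3% with matched genes. The direction of a moderate rank difference therefore depends on which genes are ranked. Mean percentiles differed by a median of 8.07 points, by more than 25 points in 1655 genes (12.8%) and by more than 50 in 226. For comparison, the median SD of a percentile among WT libraries was 1.58 points at 6 months and 2.76 at 12 months.

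The largest movers towards a higher rank at 12 months began with Rpl11, a ribosomal protein gene. It had 0.002 in each 6-month library and 0.427, 0.418, 0.407 and 0.398 at 12 months, which put it at percentiles 5.26 and 97.6. Cldn10, a claudin of tight junctions, had 0.007, 0.006 and 0.006 and then 1.771, 2.212, 1.956 and 1.841. Tsc2, the tuberous sclerosis gene that restrains mTOR, had 0.003 in each library and then 0.156, 0.167, 0.147 and 0.137. Each of these genes was even within each table, and its groups did not overlap, as the rule required. Tcf7l2 (a Wnt-pathway factor), Rock2 (a protein kinase), Arhgap24, Rpgrip1, Fxc1 (a mitochondrial import protein), Heph (a copper-dependent ferroxidase) and Stxbp4 completed the set, and the last 2 had 1 far higher library at 12 months.

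Towards a lower rank at 12 months, Klc3, a kinesin light chain, had 0.222, 0.221 and 0.208 and then 0.001, 0.003, 0.002 and 0.002. Commd1, a copper-handling protein, had 0.074, 0.075 and 0.077 and was listed at 0 in all 4 libraries at 12 months. Elk4, an ETS transcription factor, had 0.443, 0.577 and 0.503 and then 0.007, 0.004, 0.012 and 0.004. Pcdha3, a clustered protocadherin, had 0.624, 0.824 and 1.357 and then 0.002, 0.004, 0.001 and 0.003. Its 12-month scores were the same in every library as those of Pcdha4, a neighbour that shares its constant exons, and only 4 of 38 clustered protocadherins had a 6-month score against 27 at 12 months. The others were Ctnna3, Zglp1, Fam151a, Zfp697, Mybph and a sequence-named gene.

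Movers of more than 25 points differed in annotated structure. The 905 genes higher at 12 months had a median of 49.4 kb of intron and 12 introns, and the 750 lower ones 20.0 kb and 6 introns, against 22.1 kb and 9 introns in genes within 25 points. In 51.7% and 52.3% of them a gene on the opposite strand overlapped, against 42.9%, and in 24.0% and 20.2% one on the same strand, against 16.5%. Of 246 matched snoRNA host genes, 49 (19.9%) moved by more than 25 points, against 12.5% of other annotated genes. The movers also started from unlike scores. Median 6-month scores were 0.00967 in genes higher at 12 months, 0.0528 in lower ones and 0.024 in genes within 25 points. Score was related to intron length, so choosing movers by rank may shape these structural differences, which was not tested.

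Ribosomal protein genes moved more often than the background of 12.8%: 26 of 57 (45.6%) by more than 25 points, 8 towards a higher and 18 towards a lower rank at 12 months. Rpl12, Rps19 and Rps18 were chosen after their values were seen. Rpl12 had 0.746, 0.778 and 0.766 and then 0.007, 0.008, 0.008 and 0.008, Rps19 had 0.133, 0.141 and 0.128 and then 0.004, 0.005, 0.004 and 0.004, and Rps18 had 0.009, 0.01 and 0.011 and then 0.114, 0.118, 0.118 and 0.119. Within each table these scores were close to each other in every library. The tables used different gene names, but whether their gene models differed was not given. Nor was it given whether reads shared with pseudogenes were handled differently. The part of gene models and of shared reads in these rank differences was not tested. Of the activity genes, 1 of 17 moved by more than 25 points.

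**Figure D5:**
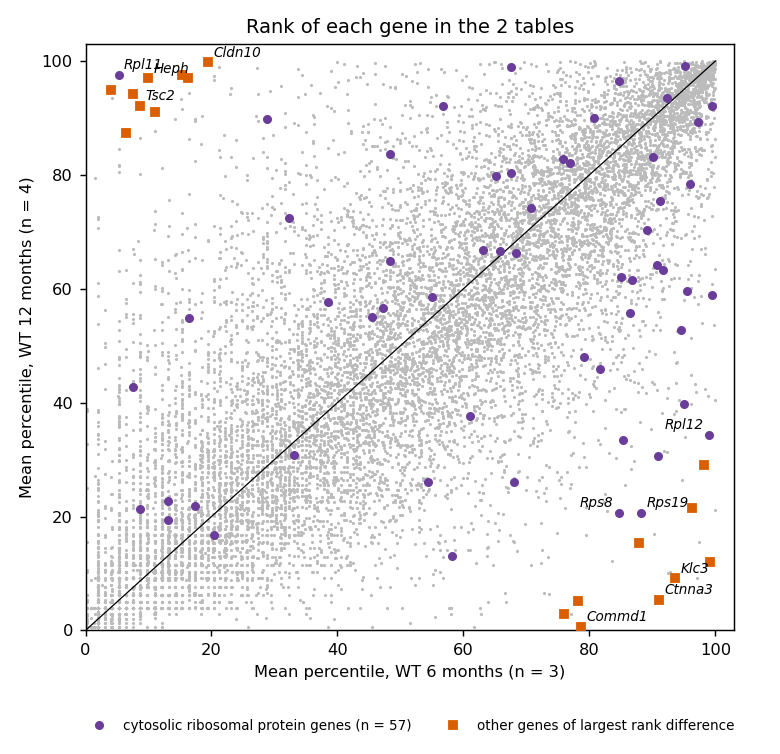
Mean percentile of each of the 12952 matched genes over the WT libraries at 6 months (x axis, n = 3) and 12 months (y axis, n = 4), with ribosomal protein genes as circles, the other genes of largest rank difference as squares and the line of equal rank in black. Mean percentiles differ by more than 10 points in 42.9% of all matched genes and by more than 25 points in 12.8%. Ribosomal protein genes spread to both corners, from Rpl11 at 5.26 and 97.6 to Rps19 at 88.2 and 20.7.

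WT libraries differed among themselves less at 6 months than at 12 months. The median SD of a gene's log2 score (after adding 0.002) was 0.12 at 6 months and 0.24 at 12 months. At 12 months the pairwise correlations with replicate 2 were 0.962 to 0.970, and replicates 3 and 4 correlated at 0.986. Replicate 2 was the single lowest library in 44.1% of 6612 genes with a mean of at least 0.02, and the single highest in 18.8%. At 6 months replicate 3 was the single highest in 42.7% of 9410 such genes.

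The most variable genes were picked by their spread, which is given as a description. At 6 months they were the kinetochore gene Casc5 (0.185, 0.208 and 0.007), the mitotic kinase Cdk1 (0.14, 0.02 and 0.007), the cadherin Cdh26 (0.008, 0.079 and 0.076), the heat shock factor Hsf3 (0.385, 0.037 and 0.107), Npb and Tsix (0.115, 0.911 and 0.753). Tsix runs antisense to Xist, and without strand in the counting the 2 transcripts cannot be told apart. At 12 months, 1 library carried most of the spread in Bcmo1, Trim30a, Scpppq1 and Apbb1ip. Bcmo1, a carotenoid-cleaving enzyme, had 0.008, 0.72, 0.014 and 0.025, and Oc90, an otoconial protein, 0.174, 0.88, 0.038 and 0.009. Trim30a, an interferon-induced gene, had 0.021, 0.735, 0.015 and 0.02, Scpppq1 0.299, 3.432, 0.116 and 0.079, and Apbb1ip, an adaptor of blood cells, 0.004, 0.172, 0.006 and 0.006. In all 5 the high library was replicate 2. An antibody-segment entry not named by symbol had 0.135, 0.197, 0.063 and 0.005, also highest in replicate 2. The spread of Oc90 and of this entry did not lie in 1 library alone.

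Against the other groups of the same table, few genes passed after adjustment, which does not show that the other genes were alike. In limma with all 12 libraries at 6 months, WT was set against the mean of the N40K, 5xFAD and dTg groups. Of 15705 genes, 21 (0.134%) passed an adjusted p under 0.05, 3 higher and 18 lower in WT. An unadjusted p under 0.05 was met by 2669 of the 15705, more than that threshold gives on average by chance. The 3 averaged groups differed in library median, at 0.033 ± 0.00265 in N40K, 0.03 ± 0.001 in 5xFAD and 0.0327 ± 0.00252 in dTg (SD, n = 3 each). In 15 of the 21 the group means differed by no more than 1 step of the last decimal. H2-T24, a non-classical histocompatibility gene, had the largest difference in score among the 4 named calls, though the smallest on the log2 scale: 1.47 ± 0.0499 in WT (SD, n = 3; 1.428 to 1.527) against 1.18 ± 0.1 in the 9 other libraries (1.011 to 1.294), 1.25-fold higher, with a limma log2 difference of 0.32 ± 0.04 (SE) and adjusted p = 0.0173. Its adjusted p missed the threshold in 2 of 12 fits that each left out 1 library, reaching 0.124, and over all alternatives it ranged from 0.0145 to 0.134. Histocompatibility genes have close copies, so this score is uncertain. Atp2b2, a plasma membrane calcium pump, and Kcnab1, a potassium channel subunit, had 0.001 in every WT library and 0.002 in all 9 others (limma adjusted p = 0.000143 for each), which is a single rounding step. Over the alternatives the adjusted p of both ranged from 7.71e-09 to 0.116. Zfp704 had 0.002 in WT and 0.00389 ± 0.000928 in the others (limma adjusted p = 0.0485). This call was lost in 9 of 12 fits that each left out 1 library, and its adjusted p ranged from 0.000234 to 0.221 over all alternatives.

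At 12 months, in limma for WT minus Tau P301S, 1258 of 15192 genes had an unadjusted p under 0.05, again more than chance gives on average. After adjustment 1 of the 15192 (0.00658%) passed. It was Astn1, a neuronal adhesion protein, listed at 0 in the 4 WT libraries and at 0.001 in the 6 Tau P301S libraries (adjusted p = 0.000103), again 1 rounding step, and its adjusted p ranged from 3.26e-10 to 0.448 over the alternatives. Median scores per library overlapped between WT and the other libraries at both ages. At 6 months the WT libraries averaged 0.0293 ± 0.000577 and the 9 others 0.0319 ± 0.00237, a log2 difference of −0.12 (two-sided exact permutation p = 0.109, 220 regroupings). At 12 months they averaged 0.015 ± 0.00231 and 0.0147 ± 0.000816, a difference of 0.02 (two-sided exact permutation p = 0.829, 210 regroupings). Of 1571 WT genes in the top decile of the 6-month table, 93.0%, 94.5% and 92.9% were also in the top decile of N40K, 5xFAD and dTg cortex, and of 1520 at 12 months 93.1% were in that of Tau P301S cortex.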

How the data were processed

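The deposited values were used as they stood: the authors gave 1 Sd score, a linear ratio, per gene and library, and per the labels the RNA was poly(A)-selected and sequenced in stranded paired-end libraries. Per the submitters' processing notes CASAVA, STAR, BWA, bedtools 2.16.1 and the mm9 build were used, with roles and annotation not given in the sources used here. Of a symbol that occurred more than once, the row of highest WT mean was kept. Genes were ranked within each library over matched symbols, with ties sharing the mean rank. GENCODE M21 supplied intron length, biotype and overlaps by Ensembl ID, without coordinates, since it is on another build. Differences from the other groups were fitted on log2(score + 0.002), in limma 3.58.1 (R 4.3.3) with all libraries of a table in 1 fit, with two-sided Benjamini-Hochberg adjustment over all its genes, and checked on simulated data. Library medians were compared by exact permutation (scipy 1.17.1).

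The members were chosen by label, and both they and the gene lists were chosen with earlier results of these data known. Named genes were the 15 highest and 10 lowest by their worst rank over the 7 libraries, 10 movers each way, 3 high and 2 low members of each list, 6 variable genes per table and up to 5 limma calls each way. Not every gene the rule gives is described, predicted genes were only counted, and a gene outside the rule is marked as picked with its values known. The labels do not say whether replicate numbers pair the libraries of different groups, and the main limma fits used no pairing.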

Additional observations from a re-analysis of the deposited data

Results flagged for a closer look

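At 12 months 56 groups of values were tested. They were named genes over the 4 WT libraries, with Npb entered more than once, and the library medians of WT and Tau P301S. In 12 genes a library had a gap to the nearest other of more than 0.829 of the whole range. Chance alone gives such a gap in about 5% of groups of 4. Genes at 0 in every library, among them the 10 lowest, could not show a gap, so 12 of 56 is not comparable with that share. In 10 of the 12 the library was replicate 2, and in 9 it was the highest. Replicate 2 was high for Ropn1l (4.496 against 2.654 to 2.963 in the others, gap 0.832 of the range), Il31ra (17.35 against 3.325 to 5.371, 0.854), Heph (0.946 against 0.247 to 0.362, 0.836) and Stxbp4 (1.569 against 0.272 to 0.281, 0.993). It was also high for Bcmo1 (0.72, gap 0.976), Trim30a (0.735, 0.992), Scpppq1 (3.432, 0.934) and Apbb1ip (0.172, 0.988), but these 4 were picked for their spread. Npb was high in replicate 1 (3.107 against 2 to 2.148, gap 0.866). For Ctnna3 (0.002 against 0.001), Fam151a (0 against 0.001) and Zglp1 (0.006 in replicate 4 against 0.004) the gap was 1, but it amounts to 1 or 2 steps of the last decimal.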

How the results depend on the processing

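The counts of genes that separated WT from the other groups depended on the settings. At 6 months the limma count of 21 became 0 with a pseudocount of 0.01, with genes of mean score at least 0.02 or with median-centred libraries (2586, 1313 and 2408 genes at an unadjusted p under 0.05), and ranged from 11 to 52 when 1 library was left out (11 without WT replicate 1, 32 without 5xFAD replicate 2 and 52 without dTg replicate 2). At 12 months the count of 1 became 0 with the pseudocount of 0.01 or centring, 3 with mean score at least 0.02, and 1 to 5 with 1 library left out (2 without WT replicate 3 or Tau P301S replicate 1, 3 without Tau P301S replicate 2, 4 without its replicate 3 and 5 without WT replicate 4). With the replicate number as a block the counts were 9 and 0, although the labels do not say whether the numbers pair the libraries. The 6-month median difference ranged from −0.133938 to −0.094945 with 1 library left out, with exact permutation p = 0.0485 without 5xFAD replicate 3. The 12-month one ranged from −0.043194, without WT replicate 3 or 4, to 0.085814. Among genes with a WT mean of at least 0.02 in both tables the rank correlation was 0.607, 3168 genes did not overlap and the top and bottom deciles shared 251 and 132. With full-table ranks the top deciles shared 428. Intron length correlated at −0.437 and −0.302 among genes with a mean of at least 0.02. The cause of these shifts was not tested. Read depth was not given and limits every score by an unknown amount, and 1 rounding step is a large share of a score near 0.002.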
